A study of Rattus norvegicus with 12 samples.

Results

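The genes described here are the chemokines, the interleukins and their receptors, and a set of inflammatory genes that NF-kB is known to act on, in cultured rat heart muscle cells. They were chosen by name, with earlier results of these data known. The shares of these genes called may therefore partly reflect that choice. The names begin with Ccl, Cxcl, Cx3cl or Il followed by a digit. Added to these are Tnf, Lif, Ptx3, Olr1, Nfkbia, Tnfaip3, Ptgs2, Icam1 and Vcam1. In the deposited table of 32883 genes, 122 genes bear such a name, and 71 of these had at least 10 counts in at least 3 of the 12 libraries. All 71 were among the 14063 genes tested. The 71 comprise 23 chemokine ligands, 15 interleukin ligands and related secreted proteins, 25 interleukin receptor chains, and 8 feedback, adhesion and other inflammatory genes. The other 51 were too low to test.

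The cells were primary ventricular cardiomyocytes of newborn rats, infected for 2 days with an adenovirus. In the control group the virus carried LacZ, a bacterial enzyme gene. In the other 3 groups it carried human KAT6A, a histone acetyltransferase, as wild type (WT), as K815R, which resists acetylation at that lysine, or as K815Q, which imitates acetylation there. Each group has 3 libraries of poly(A) RNA. Every group received a virus, so no comparison with uninfected cells can be made, and the promoter that drove each cargo is not given in the sources used here. The labels do not say whether libraries of a group came from separate cultures, so p-values measure the spread between these libraries, which may be technical. In whole cultures, fewer cells of a type and less RNA per cell cannot be told apart.

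Chemokines are small secreted proteins that draw leukocytes along a concentration gradient through receptors on those cells. Interleukins and related cytokines act through receptor chains that signal either by the adaptor MyD88, as for interleukin-1, interleukin-18 and interleukin-33, or by Janus kinases and STAT proteins, as for the interleukin-6 family. NF-kB is a dimeric transcription factor held in the cytoplasm by inhibitors such as IkBa, the product of Nfkbia. Tumour necrosis factor, interleukin-1, toll-like receptors and viral nucleic acids release it, and it then raises chemokines, adhesion molecules and its own inhibitors. Some chemokines, Cxcl10 and Cxcl11 among them, are also raised by interferon. Cultures of newborn cardiomyocytes usually hold some fibroblasts, endothelial cells and macrophages, which make many of these proteins.

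To show what lies in front of some of the called genes, the 250 bases before the start of 6 of them are printed, from RefSeq (GRCr8), 5′ to 3′. Cxcl10 and Cxcl11 were called lower in all 3 KAT6A groups, Ptx3 and Olr1 were lowest in WT, and Ccl20 and Vcam1 were lower in the mutants. The windows were matched by symbol, and the counts themselves were made on another build, Rnor_6.0. Capitals mark matches on either strand to an NF-kB motif (GGGA, any 4 bases, CC) or to an interferon-stimulated element (GAAA, any 2 bases, GAAA).
Cxcl10: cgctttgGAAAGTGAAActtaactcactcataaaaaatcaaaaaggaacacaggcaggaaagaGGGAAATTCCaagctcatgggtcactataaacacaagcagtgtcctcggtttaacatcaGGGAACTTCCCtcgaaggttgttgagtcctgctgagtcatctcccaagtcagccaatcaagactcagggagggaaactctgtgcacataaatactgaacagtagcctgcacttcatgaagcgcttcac
Cxcl11: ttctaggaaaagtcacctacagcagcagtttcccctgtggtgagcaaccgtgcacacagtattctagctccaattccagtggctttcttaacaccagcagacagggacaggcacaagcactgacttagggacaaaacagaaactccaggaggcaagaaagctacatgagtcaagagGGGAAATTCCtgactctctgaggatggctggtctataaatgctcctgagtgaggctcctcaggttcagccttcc
Ptx3: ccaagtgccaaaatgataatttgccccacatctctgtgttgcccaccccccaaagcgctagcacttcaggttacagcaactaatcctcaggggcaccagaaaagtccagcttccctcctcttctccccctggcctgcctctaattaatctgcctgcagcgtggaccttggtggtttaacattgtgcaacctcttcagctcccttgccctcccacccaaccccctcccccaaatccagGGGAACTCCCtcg
Olr1: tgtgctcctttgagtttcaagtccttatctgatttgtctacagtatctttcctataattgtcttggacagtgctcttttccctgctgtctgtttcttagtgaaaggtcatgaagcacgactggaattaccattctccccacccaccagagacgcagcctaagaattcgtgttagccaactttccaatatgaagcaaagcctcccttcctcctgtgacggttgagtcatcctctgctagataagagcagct
Ccl20: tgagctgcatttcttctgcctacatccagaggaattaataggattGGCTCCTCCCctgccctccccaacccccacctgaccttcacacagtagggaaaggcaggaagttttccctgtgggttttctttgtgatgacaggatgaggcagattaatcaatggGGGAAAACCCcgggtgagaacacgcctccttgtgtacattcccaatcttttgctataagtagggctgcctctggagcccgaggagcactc
Vcam1: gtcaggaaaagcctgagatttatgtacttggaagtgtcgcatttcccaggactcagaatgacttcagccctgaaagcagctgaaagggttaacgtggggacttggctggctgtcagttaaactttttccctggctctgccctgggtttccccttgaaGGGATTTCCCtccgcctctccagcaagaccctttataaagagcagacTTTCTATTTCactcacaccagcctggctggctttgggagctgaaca

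The Cxcl10 window (chr14:15988816-15989065 on the plus strand) holds an interferon element that begins 243 bases before the start and NF-kB stretches that begin 187 and 128 bases before it. The Cxcl11 window (chr14:15973478-15973727 on the plus strand) holds 1 NF-kB stretch, 74 bases before the start. In the Ptx3 window (chr2:152797313-152797562 on the plus strand) the 1 NF-kB stretch begins 13 bases before the start. The Olr1 window (chr4:164634548-164634797 on the minus strand) holds neither set of letters. In the Ccl20 window (chr9:91836909-91837158 on the plus strand) NF-kB stretches begin 205 and 90 bases before the start. The Vcam1 window (chr2:206742784-206743033 on the minus strand) holds an NF-kB stretch 93 bases and an interferon element 46 bases before the start. The 6 printed windows are a selection of the called genes. Those of Cxcl12, Cxcl16, Ccl6, Il18bp, Il1r1, Icam1 and Il17b, also called, hold neither set of letters. Those of Il1rap and Cxcl13 hold NF-kB letters, and that of Il6st holds an interferon element. RefSeq windows were found for 56 of the 71 genes. The NF-kB letters occur in 25 of these 56 (44.6%) and in 16.4% of all 33465 windows of that length. The interferon element occurs in 4 of the 56 (7.14%) and in 3.41% of all windows. A match is a string of letters and not a measured binding site.

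**Figure D1:**
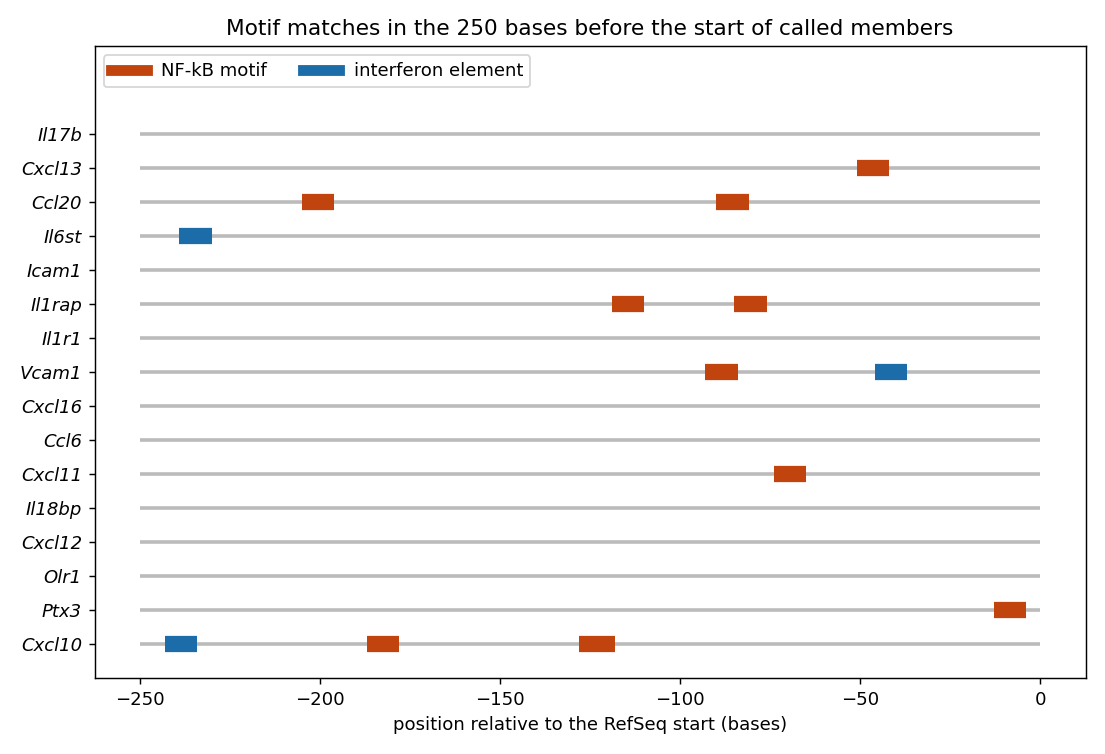
Positions of NF-kB motif matches (orange) and interferon element matches (blue) in the 250 bases before the RefSeq start of called genes, with the distance from the start in bases on the x axis. Ccl20 and Il1rap each carry 2 NF-kB stretches, Cxcl10 carries 2 and an interferon element, and the lines of Olr1, Cxcl12, Cxcl16, Ccl6, Il18bp, Il1r1, Icam1 and Il17b are empty.

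Gene counts per library ran from 19102048 to 25451686, so 3 counts, taken as the floor, correspond to 0.118 to 0.156 CPM (gene counts scaled by TMM to a common library total). Rat Kat6a, to which reads of the human cargo may also align, averaged 48.1 ± 4.75 CPM for LacZ, 93.0 ± 12.3 for WT, 108 ± 11.7 for K815R and 46.3 ± 3.35 for the libraries labelled K815Q (SD, n = 3 each). The last group lacks the rise of the other forms, so it is written labelled-K815Q throughout, and its directions hold only as far as that label does. LacZ replicate 2 stood apart in interferon-response genes: 34 of them summed to 2042 CPM there against 1423 and 1425 in the other LacZ libraries. The defining cardiomyocyte genes were abundant, with 6 of them summing to between 32344 and 35678 CPM in every library.

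Against LacZ most of the inflammatory genes were not called, and most of those called were lower. A gene is called here when edgeR's adjusted p over all 14063 genes is under 0.05. With WT, 9 of the 71 fell (12.7%) and 2 rose (2.82%), where the background over all genes tested was 3.39% lower and 1.95% higher. With K815R, 5 fell (7.04%) and 0 rose, against a background of 1.74% lower and 0.74% higher. In labelled-K815Q, 6 fell (8.45%) and 0 rose, against 4.98% lower and 2.87% higher, so the share that fell was nearer its background than with WT or K815R. Of the genes that lay higher, 6 in K815R and 7 in labelled-K815Q had an unadjusted p under 0.05, and DESeq2 called 0 in either. The median log2 fold change of the 71 was -0.10, -0.10 and -0.05 in these comparisons, beside 0.01, 0.00 and 0.01 over all genes tested, and -0.03, -0.03 and -0.01 without LacZ replicate 2. All 3 comparisons use the same LacZ libraries.

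Between the forms of KAT6A, 5 of the 71 were higher and 3 lower in K815R than in WT (7.04% and 4.23%), with a background of 1.32% higher and 0.882% lower. In labelled-K815Q, 3 were higher than in WT (4.23%) and 0 were lower by edgeR, with a background of 0.718% and 0.356%. For the lower direction, 5 had an unadjusted p under 0.05 and DESeq2 called 1. K815R and labelled-K815Q differed in 0 of the 71 by edgeR and 0 by DESeq2, while 14 had an unadjusted p under 0.05. The background of that comparison was 0.213% higher and 0.149% lower. When all 4 groups were tested together, a difference was called in 11 of the 71 (15.5%), beside 8.13% of all genes called. In all, 17 genes were called in at least 1 of the 6 comparisons and 54 in none. No adjustment was made over the 6 comparisons. Of the 17, the test of all 4 groups together did not call Vcam1, Cxcl13, Il1r1, Il17b, Icam1 or Il6st. Their adjusted p in that edgeR test was 0.0509, 0.0580, 0.0613, 0.0621, 0.0918 and 0.147. The 17 comprise 8 chemokine ligands, 2 interleukin ligands, 3 interleukin receptor chains and 4 feedback and adhesion genes. They yield 33 calls, of which 12 held in all 12 fits that left out 1 library each. For each of the other 21 the fits that lost it are given beside it.

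**Figure D2:**
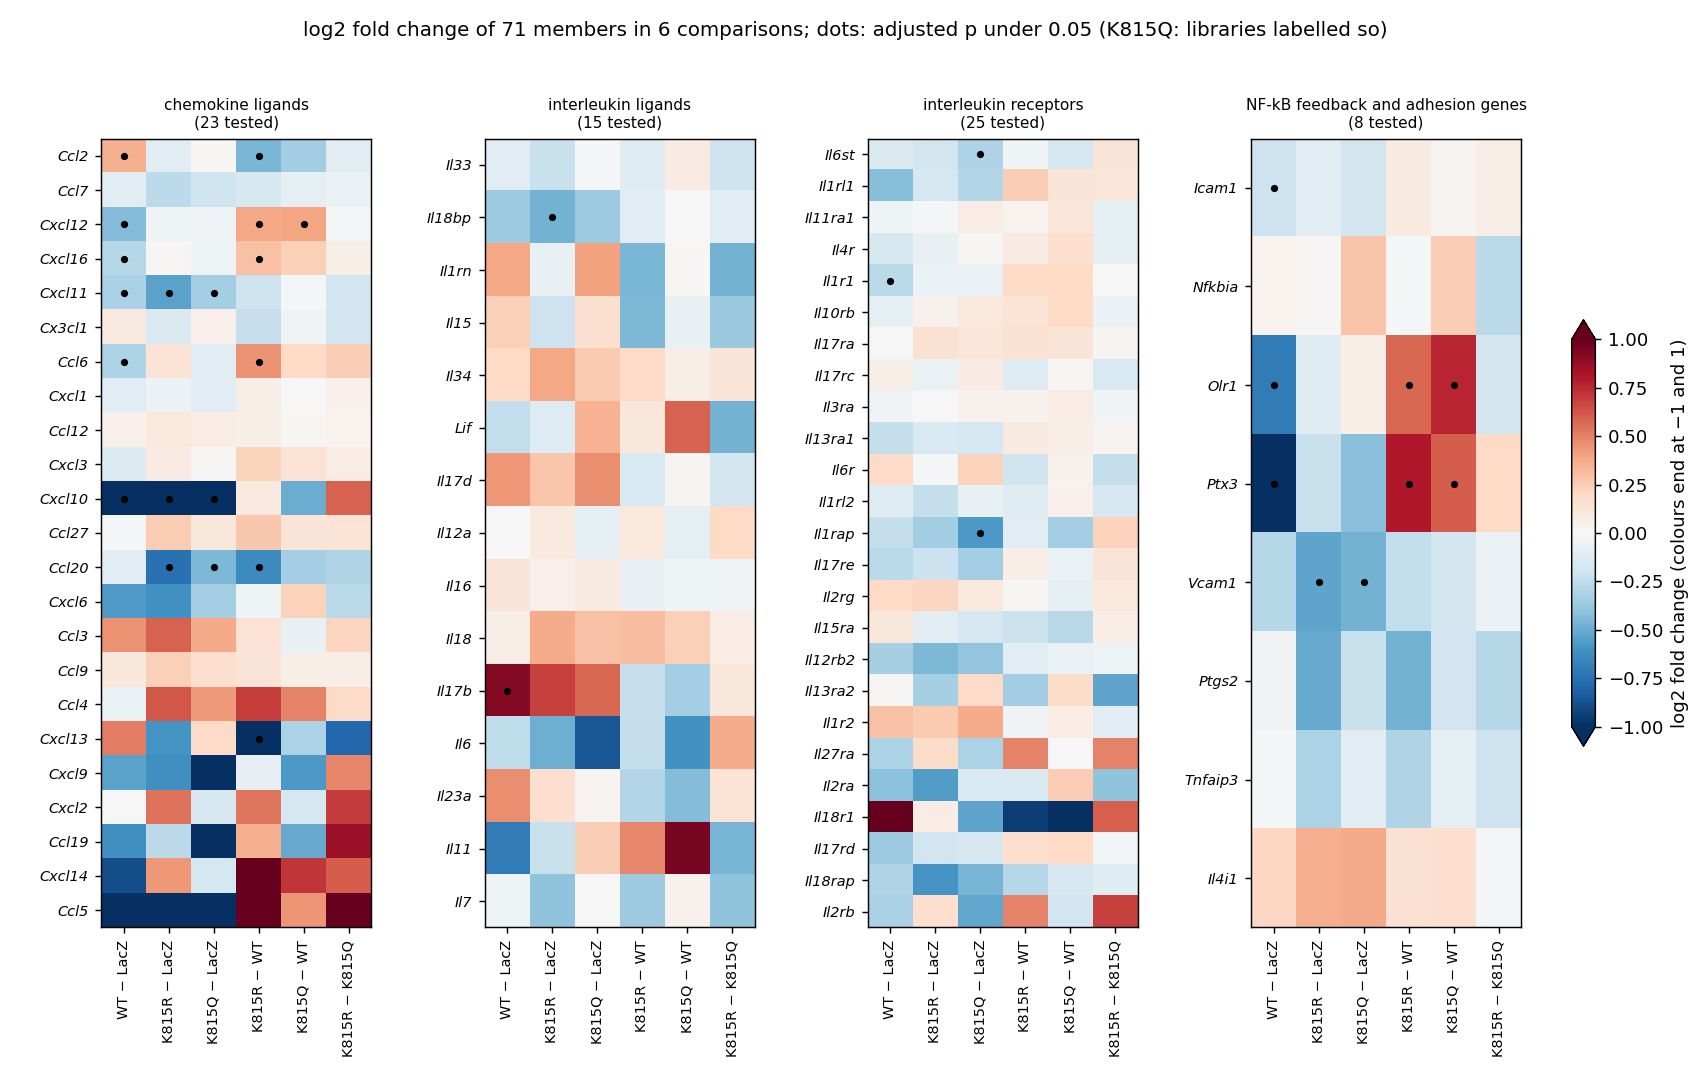
log2 fold changes of the 71 genes (rows, by role) in the 6 pairwise comparisons (columns), with colours that end at −1 and 1 and a dot where the adjusted p is under 0.05. Cxcl10 and Cxcl11 carry dots in all 3 comparisons with LacZ, and the column of K815R against labelled-K815Q carries none.

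Cxcl10 (ENSRNOG00000022256), a ligand of CXCR3, a chemokine receptor on activated T cells, showed the largest fall of the called genes in each comparison with LacZ. Its levels were 16.6, 32.5 and 17.4 CPM for LacZ, 5.73, 4.24 and 4.99 for WT, 5.36, 4.53 and 6.18 for K815R and 3.59, 3.66 and 3.39 for labelled-K815Q. Every LacZ library lay above all 9 others. The log2 fold change was -2.15 in WT (SE 0.284, adjusted p 0.00297), a level 4.43-fold lower. It was -2.05 in K815R (SE 0.277, adjusted p 0.00571), 4.14-fold lower. In labelled-K815Q it was -2.64 (SE 0.302, adjusted p 0.00124), 6.23-fold lower. All these calls held with any 1 library left out. Without LacZ replicate 2 the values were -1.77, -1.67 and -2.26. When only the 6 libraries of a comparison were fitted, the calls for WT and K815R were lost, with adjusted p 0.0699 and 0.112. The 3 forms did not differ from each other by a called amount: the log2 difference was 0.10 for K815R against WT (95% interval -0.66 to 0.85) and -0.49 for labelled-K815Q against WT (-1.32 to 0.33). Between K815R and those libraries it was 0.59 (-0.22 to 1.39).

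Cxcl11 (ENSRNOG00000022298), which acts on the same receptor and lies beside Cxcl10, fell less. It stood at 31.5, 34.6 and 33.1 CPM for LacZ, 24.2, 27.7 and 27.2 for WT, 23.1, 24.3 and 21.1 for K815R and 28.7, 25.0 and 24.6 for labelled-K815Q. The LacZ libraries were again above all others. The log2 fold changes were -0.33 in WT (SE 0.0751, adjusted p 0.0105), -0.53 in K815R (SE 0.0754, adjusted p 2.57e-04) and -0.34 in labelled-K815Q (SE 0.0754, adjusted p 0.00741). The WT call was lost without LacZ replicate 2 or WT replicate 1, at -0.30 to -0.27. Cxcl10 and Cxcl11 both overlap Art3 in the RefSeq table, and the counter's strand setting is not given in the sources used here, so part of their reads may belong to Art3 or be left out.

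Cxcl9 and Ccl5 are interferon-inducible chemokines with low counts. Both are among the 71 genes, but were not called, and were chosen for description after their values were seen. Cxcl9, the other CXCR3 ligand, had 20, 38 and 10 counts for LacZ, 13, 19 and 8 for WT, 14, 17 and 11 for K815R and 6, 12 and 8 for labelled-K815Q, and was not called. Ccl5, an attractant of T cells and monocytes, had 14, 34 and 11 counts for LacZ, 3, 0 and 3 for WT, 13, 6 and 7 for K815R and 0, 7 and 1 for labelled-K815Q. Its adjusted p against LacZ was 0.0636, 0.493 and 0.0720, so it was not called either. In both genes LacZ replicate 2 had the highest count. The secreted decoy of interleukin-18, Il18bp, is also known as an interferon target, and is described with the interleukins.

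The type I interferon response was lower in the same groups. Of 34 such genes tested, none of them a chemokine or interleukin, 33 fell in WT, 30 in K815R and 32 in labelled-K815Q, with median log2 fold changes of -1.89, -1.52 and -2.22. Without LacZ replicate 2, 30, 21 and 31 were called lower, with medians of -1.63, -1.31 and -1.99. Their summed level was 1423 to 2042 CPM for LacZ, 548 to 747 for WT, 718 to 820 for K815R and 563 to 627 for labelled-K815Q. Its part in the fall of Cxcl10 and Cxcl11 was not tested.

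Ptx3 and Olr1 were lower in WT than in LacZ and lower in WT than in either mutant. Ptx3 (ENSRNOG00000012280) encodes the long pentraxin PTX3, a secreted pattern-recognition protein of innate immunity. Its levels were 15.9, 23.7 and 15.2 CPM for LacZ, 9.28, 9.04 and 8.55 for WT, 16.1, 15.1 and 15.7 for K815R and 13.2, 14.0 and 13.6 for labelled-K815Q. The WT libraries were below all 9 others. Ptx3 fell by 1.02 on the log2 scale with WT (SE 0.134, adjusted p 2.08e-04), to a level 2.03-fold lower, and ran from -1.15 to -0.80 when 1 library was left out, called each time. K815R was higher than WT by 0.80 (SE 0.137, adjusted p 0.00586). The labelled-K815Q libraries were higher than WT by 0.60 (SE 0.141, adjusted p 0.0498), a call that was lost when genes were kept by 10 counts in 3 libraries, and without any 1 of the 9 WT, K815R or labelled K815Q libraries, at 0.57 to 0.63. Against LacZ the log2 difference was -0.22 in K815R (adjusted p 0.461), and 0.01 without LacZ replicate 2. In labelled-K815Q it was -0.42 (adjusted p 0.0538), called in 4 of 8 other settings, and -0.19 without LacZ replicate 2 (adjusted p 0.223). Ptx3 overlaps Veph1 in the RefSeq table, with the same limit as for Art3.

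Olr1 (ENSRNOG00000056219) encodes LOX-1, a scavenger receptor for oxidised low-density lipoprotein. It stood at 22.5, 21.2 and 24.1 CPM for LacZ, 14.0, 14.1 and 13.8 for WT, 19.5, 20.1 and 22.8 for K815R and 25.2, 26.2 and 19.6 for labelled-K815Q. The WT values lay within a narrow range, below every other library. Against LacZ the WT level was 1.62-fold lower, or -0.70 on the log2 scale (SE 0.0951, adjusted p 9.48e-05). K815R was above WT by 0.58 (SE 0.0962, adjusted p 0.00226) and labelled-K815Q by 0.76 (SE 0.0962, adjusted p 1.62e-04), on the log2 scale. All 3 calls held with any 1 library left out and under every other setting tried. The difference from LacZ was -0.12 in K815R (adjusted p 0.623) and 0.07 in labelled-K815Q (adjusted p 0.699), neither called.

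**Figure D3:**
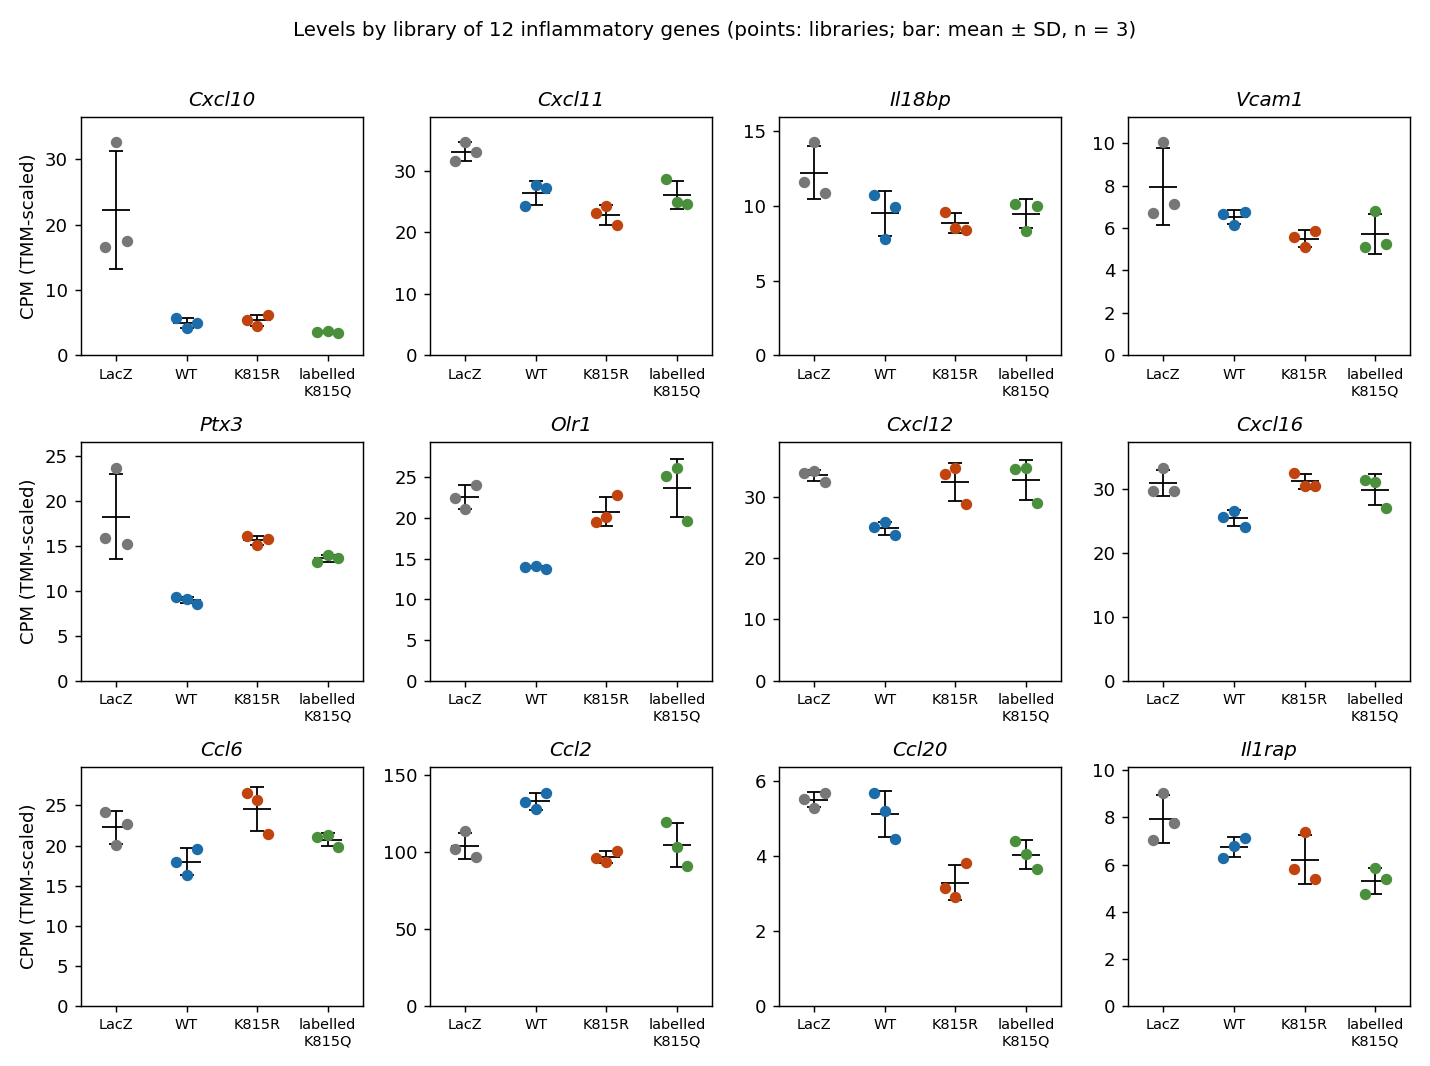
CPM of 12 genes in each library (points), with mean and SD (n = 3) per group, on axes that start at 0. The WT points of Ptx3, Olr1, Cxcl12 and Cxcl16 lie below all others, and the LacZ points of Cxcl10 and Cxcl11 lie above all others.

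Chemokine ligands Cxcl12, Cxcl16 and Ccl6 were also lower in WT than in LacZ and higher in K815R than in WT, by smaller amounts. Cxcl12 (ENSRNOG00000013589), the stromal ligand of CXCR4, had 34.0, 34.2 and 32.5 CPM for LacZ, 25.1, 25.8 and 23.8 for WT, 33.7, 34.7 and 28.9 for K815R and 34.5, 34.8 and 29.0 for labelled-K815Q. Its WT values lay below all others. On the log2 scale it stood at -0.43 for WT against LacZ (SE 0.0780, adjusted p 0.00148), 0.38 for K815R against WT (SE 0.0785, adjusted p 0.0108) and 0.40 for labelled-K815Q against WT (SE 0.0792, adjusted p 0.0122). The call for K815R against WT was lost without WT replicate 3 or K815R replicate 2, at 0.33 to 0.35. The call for labelled-K815Q was lost without WT replicate 1 or 3 or labelled-K815Q replicate 1 or 2, at 0.35 to 0.40.

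Cxcl16 (ENSRNOG00000026647) is made both as a membrane-bound scavenger receptor and as a shed ligand of CXCR6. It measured 29.8, 33.4 and 29.8 CPM for LacZ, 25.7, 26.6 and 24.1 for WT, 32.7, 30.6 and 30.6 for K815R and 31.6, 31.2 and 27.1 for labelled-K815Q. The WT libraries were the lowest of the 12. It fell in WT against LacZ by 0.28 on the log2 scale (SE 0.0721, adjusted p 0.0200) and K815R exceeded WT by 0.30 (SE 0.0724, adjusted p 0.0325). The former call was lost without LacZ replicate 2 or WT replicate 1 or 3 (-0.29 to -0.23), and the latter without any 1 of the 6 libraries compared (0.26 to 0.33). Ccl6 (ENSRNOG00000030021), a rodent chemokine for monocytes and macrophages, had 24.2, 20.1 and 22.7 CPM for LacZ, 18.0, 16.3 and 19.6 for WT, 26.6, 25.7 and 21.4 for K815R and 21.1, 21.3 and 19.8 for labelled-K815Q. WT was below LacZ and K815R in every library. WT against LacZ gave -0.31 on the log2 scale (SE 0.0895, adjusted p 0.0434) and K815R against WT gave 0.45 (SE 0.0893, adjusted p 0.00893). The former was lost in 6 fits, without LacZ replicate 1 or 3, WT replicate 1 or 2, or labelled-K815Q replicate 1 or 2 (-0.31 to -0.25). The latter was lost without WT replicate 2 or K815R replicate 1 (0.38 to 0.39). Cxcl16 overlaps Zmynd15 and Ccl6 overlaps an unnamed long non-coding RNA in the RefSeq table.

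Ccl2 (ENSRNOG00000007159), the main attractant of monocytes through CCR2, moved the other way. Its levels were 102, 113 and 96.8 CPM for LacZ, 133, 128 and 138 for WT, 95.8, 93.7 and 101 for K815R and 120, 103 and 90.8 for labelled-K815Q. All WT libraries exceeded the other 9. Ccl2 rose in WT against LacZ by 0.35 on the log2 scale (SE 0.0797, adjusted p 0.0151) and stood at -0.46 in K815R against WT (SE 0.0801, adjusted p 0.00764). The rise was lost without LacZ replicate 1 or 3 or WT replicate 1 or 3, at 0.30 to 0.36, and the difference from K815R was lost without K815R replicate 2, at -0.43. The labelled-K815Q libraries stood at -0.35 against WT, which missed the threshold (adjusted p 0.0515) but was called in 6 of 8 other settings, DESeq2 among them (adjusted p 0.00426), and in 3 of the 12 fits with 1 library left out. Ccl7, which is encoded beside Ccl2 and shares its receptor, had 40.7 ± 6.28, 37.8 ± 2.02, 33.8 ± 2.41 and 35.4 ± 5.36 CPM (SD, n = 3) in LacZ, WT, K815R and labelled-K815Q and was not called. These and other close copies, such as Cxcl1, Cxcl2 and Cxcl3, were counted only from reads that align to a single place.

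Ccl20 was lower with the mutants than with LacZ, and lower in K815R than in WT. Ccl20 (ENSRNOG00000015992) draws cells that carry CCR6. It stood at 5.53, 5.30 and 5.70 CPM for LacZ, 5.68, 5.22 and 4.47 for WT, 3.14, 2.92 and 3.81 for K815R and 4.42, 4.06 and 3.65 for labelled-K815Q. K815R and labelled-K815Q lay below all LacZ libraries, and WT overlapped LacZ. The log2 fold change against LacZ was -0.75 in K815R (SE 0.134, adjusted p 0.00257), called with any 1 library left out. It was -0.45 in labelled-K815Q (SE 0.133, adjusted p 0.0407), a call lost without any 1 of the 6 libraries compared, at -0.51 to -0.38, and lost by DESeq2. WT differed from LacZ by -0.11 (adjusted p 0.707). K815R stood at -0.64 against WT (SE 0.138, adjusted p 0.0167), lost without WT replicate 1 or 2 or K815R replicate 1 or 2, at -0.62 to -0.55. K815R against labelled-K815Q gave -0.30, not called (adjusted p 0.437).

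Cxcl13 (ENSRNOG00000024899), a chemokine for B cells, was low throughout. It had 0.964, 0.980 and 0.861 CPM for LacZ, 1.57, 1.09 and 1.33 for WT, 0.670, 0.512 and 0.681 for K815R and 1.46, 0.762 and 0.990 for labelled-K815Q. K815R lay below WT in every library, at -1.11 on the log2 scale (SE 0.276, adjusted p 0.0370). That call was lost without any 1 of the 6 libraries compared (-1.23 to -0.97) and by DESeq2. The other 15 of the 23 chemokine ligands were not called in any comparison.

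Among the 15 interleukin ligands and related secreted proteins, Il17b rose with WT and Il18bp fell with K815R. Il17b (ENSRNOG00000019695), a member of the interleukin-17 family, had 0.838, 0.758 and 0.820 CPM for LacZ, 1.32, 1.55 and 1.71 for WT, 1.44, 1.50 and 0.954 for K815R and 1.30, 1.22 and 1.09 for labelled-K815Q. All LacZ libraries were below the other 9. The WT level was 1.89-fold higher than LacZ, or 0.92 on the log2 scale (SE 0.235, adjusted p 0.0214). It was lost by DESeq2 and without LacZ replicate 2 or 3 or WT replicate 2 or 3, at 0.83 to 0.93. Il18bp (ENSRNOG00000020150), which binds and blocks interleukin-18, had 11.6, 14.2 and 10.8 CPM for LacZ, 10.7, 7.80 and 9.93 for WT, 9.58, 8.47 and 8.40 for K815R and 10.1, 8.33 and 9.95 for labelled-K815Q. The highest library was LacZ replicate 2, which also had the highest interferon response. The fall in K815R was -0.47 (SE 0.119, adjusted p 0.0348). It was lost without LacZ replicate 1 or 2 or any 1 K815R library, at -0.53 to -0.35, with -0.35 without LacZ replicate 2. WT and labelled-K815Q each stood at -0.36, not called (adjusted p 0.0863 and 0.0661), and each at -0.24 without LacZ replicate 2.

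The classical inflammatory cytokines were low or not detected. Tnf had 0 counts in all 12 libraries and was not tested, and 45 of the 51 genes left out had fewer than 10 counts in every library. Il6, whose product signals through gp130, was not called, and is named here after its values were seen: it had 1.21, 1.87 and 1.52 CPM for LacZ, 1.42, 1.24 and 1.19 for WT, 0.927, 1.26 and 1.04 for K815R and 0.728, 1.32 and 0.469 for labelled-K815Q. Its log2 difference from LacZ in labelled-K815Q was -0.86 (adjusted p 0.0646). Lif, the leukaemia inhibitory factor of the same family, had 2.47, 3.25 and 3.11 CPM for LacZ, 2.03, 2.02 and 3.37 for WT, 2.37, 3.15 and 2.50 for K815R and 3.90, 3.81 and 3.54 for labelled-K815Q. The last group was above the other 9 libraries, and no comparison of Lif was called. Il33, an alarmin released by damaged cells, averaged 19.3 ± 1.73, 18.0 ± 1.54, 16.6 ± 0.642 and 19.1 ± 1.17 CPM (SD, n = 3) in LacZ, WT, K815R and labelled-K815Q and was not called.

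In all, 3 receptor chains fell, each in a single comparison with LacZ, and none of the 25 was called higher. The 1 that fell in WT is 4.00% of the 25 and the 2 in labelled-K815Q are 8.00%, near the background shares of 3.39% and 4.98%. Il1r1 (ENSRNOG00000014504), the signalling receptor of interleukin-1, had 46.4, 41.8 and 48.2 CPM for LacZ, 37.9, 38.1 and 37.5 for WT, 41.2, 44.3 and 44.7 for K815R and 41.3, 48.5 and 40.7 for labelled-K815Q. The WT values were the lowest of the 12. The log2 fold change of WT against LacZ was -0.27 (SE 0.0692, adjusted p 0.0236), lost without LacZ replicate 1 or 3 or any 1 WT library, at -0.27 to -0.22. Il1rap (ENSRNOG00000001928), the co-receptor shared by interleukin-1 and interleukin-33, had 7.04, 9.05 and 7.75 CPM for LacZ, 6.29, 6.77 and 7.13 for WT, 5.82, 7.37 and 5.40 for K815R and 4.73, 5.84 and 5.37 for labelled-K815Q. The labelled-K815Q libraries lay below every LacZ library, at -0.58 on the log2 scale (SE 0.130, adjusted p 0.00889). That call was lost without LacZ replicate 2 or labelled-K815Q replicate 1, at -0.50 to -0.48.

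Il6st (ENSRNOG00000013963), which encodes gp130, the shared signalling chain of the interleukin-6 family and a survival receptor of cardiomyocytes, had 134, 142 and 156 CPM for LacZ, 123, 127 and 140 for WT, 115, 143 and 122 for K815R and 105, 127 and 116 for labelled-K815Q. It was lower in labelled-K815Q than in LacZ in every library, at -0.31 on the log2 scale (SE 0.0889, adjusted p 0.0480). Of the 12 fits with 1 library left out, 7 lost the call: those without LacZ replicate 2 or 3, WT replicate 1 or 2, K815R replicate 3, or labelled-K815Q replicate 1 or 3 (-0.32 to -0.25). Il1rl1, the interleukin-33 receptor ST2, had 138, 125 and 128 CPM for LacZ, 97.9, 95.7 and 97.2 for WT, 121, 126 and 97.9 for K815R and 109, 127 and 82.7 for labelled-K815Q. WT lay below LacZ in every library, at -0.43, but was not called (adjusted p 0.145). In a fit of the 6 LacZ and WT libraries alone it was called (adjusted p 7.39e-05), the only 1 of 8 other settings that called it. With 1 library left out, 1 of the 12 fits called it, the fit without labelled-K815Q replicate 3. Il1rap and Il6st each overlap an unnamed gene in the RefSeq table.

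Adhesion molecules for leukocytes were lower by small amounts. Vcam1 (ENSRNOG00000014333), the ligand of the integrin VLA-4, had 6.70, 10.0 and 7.13 CPM for LacZ, 6.64, 6.15 and 6.75 for WT, 5.56, 5.08 and 5.86 for K815R and 5.09, 6.80 and 5.26 for labelled-K815Q. K815R lay below LacZ in every library, while labelled-K815Q replicate 2 exceeded LacZ replicate 1. The log2 fold change was -0.53 in K815R (SE 0.140, adjusted p 0.0439) and -0.47 in labelled-K815Q (SE 0.142, adjusted p 0.0455). DESeq2 did not call the latter, and neither was called when only the 6 libraries compared were fitted. Both calls were lost without LacZ replicate 2, where the values were -0.33 and -0.27. The K815R call was lost in 8 of the 12 fits (-0.58 to -0.33), all but those without LacZ replicate 1 or 3 or labelled-K815Q replicate 1 or 2. The other was lost in 9 (-0.54 to -0.27), all but those without LacZ replicate 1, K815R replicate 2 or labelled-K815Q replicate 2. WT stood at -0.28, not called (adjusted p 0.273), and at -0.09 without LacZ replicate 2.

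Icam1 (ENSRNOG00000020679), the ligand of the leukocyte integrin LFA-1, had 64.7, 65.8 and 59.5 CPM for LacZ, 51.7, 55.0 and 57.7 for WT, 54.1, 62.8 and 58.2 for K815R and 57.2, 56.1 and 54.2 for labelled-K815Q. LacZ lay above WT in every library. The log2 fold change of WT against LacZ was -0.21 (SE 0.0613, adjusted p 0.0489). The call was lost under upper-quartile scaling and in 8 of the 12 fits, at -0.21 to -0.17, and kept without LacZ replicate 3, WT replicate 3 or K815R replicate 1 or 2.

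The genes by which NF-kB limits itself were not called. Nfkbia, which encodes the inhibitor IkBa, had 31.3, 34.2 and 29.9 CPM for LacZ, 31.0, 35.8 and 30.8 for WT, 36.1, 28.7 and 31.7 for K815R and 45.8, 38.6 and 31.6 for labelled-K815Q. The last group was the most spread, and its log2 difference from LacZ was 0.28 (adjusted p 0.178). Tnfaip3, which encodes the ubiquitin-editing enzyme A20, had 3.60, 3.74 and 3.98 CPM for LacZ, 4.01, 3.51 and 3.71 for WT, 3.66, 2.72 and 2.82 for K815R and 4.00, 4.01 and 2.50 for labelled-K815Q, and all its groups overlapped. Ptgs2, the inducible cyclooxygenase, had 5.74, 5.93 and 5.90 CPM for LacZ, 5.07, 4.70 and 7.32 for WT, 4.74, 3.67 and 4.04 for K815R and 4.37, 5.84 and 4.85 for labelled-K815Q. K815R lay below LacZ in every library, at -0.51, which was not called (adjusted p 0.0843).

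**Figure D4:**
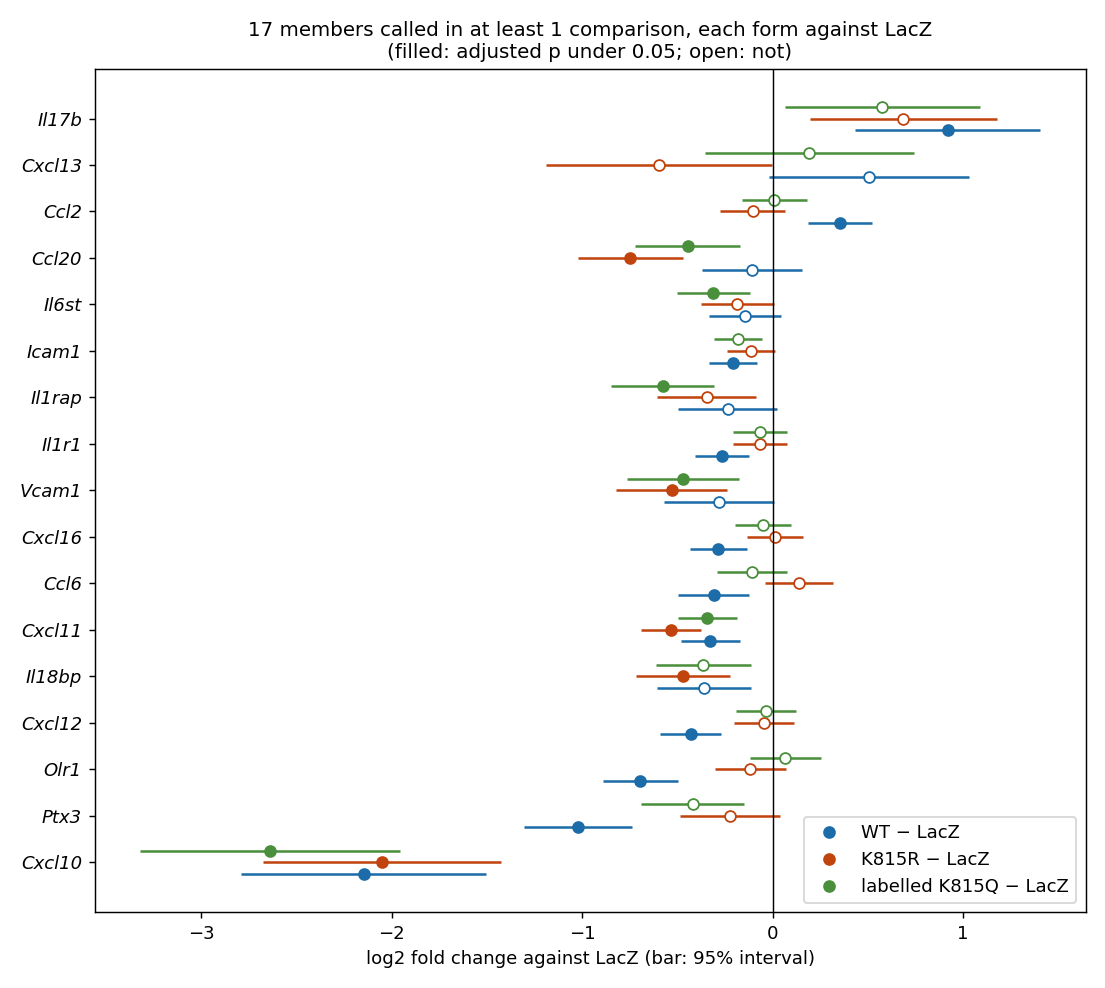
log2 fold change against LacZ (x axis) with its 95% interval for the 17 called genes, for WT (blue), K815R (orange) and labelled-K815Q (green), where a filled point is called. Cxcl10 lies near −2 or beyond in all 3 comparisons, and Ptx3, Olr1 and Cxcl12 are filled for WT alone.

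Most genes of the NF-kB pathway were not called. Of 10 genes for NF-kB subunits and inhibitors edgeR and DESeq2 called 0 in any comparison, where 0 to 3 had an unadjusted p under 0.05, with median log2 fold changes against LacZ of -0.03 in WT, -0.00 in K815R and -0.01 in labelled-K815Q. Of 27 genes tested for the kinases, adaptors and receptors of TNF, interleukin-1 and toll-like signalling, 4 fell in WT, 1 in K815R and 2 in labelled-K815Q. The background over all genes tested was 3.39%, 1.74% and 4.98% lower. None of the 27 was called higher against LacZ by edgeR or DESeq2, and 2, 0 and 0 of those lying higher had an unadjusted p under 0.05. Ripk2, a kinase downstream of intracellular NOD receptors, fell in all 3, by 0.40, 0.35 and 0.29 on the log2 scale (adjusted p 5.95e-04, 0.00364 and 0.00857). Tlr2, a receptor for bacterial lipoproteins, fell by 0.41 in WT and 0.33 in labelled-K815Q (adjusted p 0.00518 and 0.0218). Tlr3, the receptor for double-stranded RNA, and Irak3, an inhibitor of interleukin-1 and toll-like signalling, fell in WT by 0.59 and 0.27 (adjusted p 0.0276 and 0.0340). Without LacZ replicate 2, Ripk2 and Tlr3 remained called in WT and Ripk2 in K815R. The calls of Tlr2 (-0.30) and Irak3 (-0.21) in WT, and of Ripk2 (-0.26) and Tlr2 (-0.22) in labelled-K815Q, were lost.

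Of 18 other NF-kB feedback genes and targets tested, 3 fell in WT, 1 in K815R and 3 in labelled-K815Q. Over all genes tested, 3.39%, 1.74% and 4.98% were called lower in these comparisons. Csf1, the macrophage growth factor, fell in all 3, by 0.38, 0.41 and 0.35 on the log2 scale (adjusted p 5.80e-05, 4.69e-05 and 1.17e-04). Complement C3 fell by 0.61 in WT and 0.70 in labelled-K815Q (adjusted p 0.0265 and 0.0117). Sod2, the mitochondrial superoxide dismutase, fell in WT by 0.23 (adjusted p 0.0130), and Lcn2, an iron-binding acute-phase protein, fell in labelled-K815Q by 0.95 (adjusted p 0.0291). Without LacZ replicate 2, Lcn2 stood at -0.64 in labelled-K815Q, and C3 at -0.41 in WT and -0.50 in labelled-K815Q, all still called, while the call of Sod2 was lost, at -0.16. In that fit Lcn2 was also called lower in WT, at -0.53 (adjusted p 3.03e-05). In K815R it stood at -0.25, not called (adjusted p 0.0602). Of 23 genes of cytokine signalling by Janus kinases and STAT proteins, 3 fell and 1 rose in WT, 2 fell in K815R, and 4 fell and 2 rose in labelled-K815Q. Over all genes tested, 1.95%, 0.74% and 2.87% were called higher in these comparisons. When LacZ replicate 2 was left out, the list had 3 lower in WT, 2 in K815R and 3 in labelled-K815Q, and 0 higher in each. Stat2 and Stat4, signal carriers of interferon and interleukin-12, fell in all 3: Stat2 by 1.20, 0.89 and 1.22, and Stat4 by 0.70, 0.69 and 0.84, with adjusted p of at most 0.00282. Osmr, the oncostatin M receptor that pairs with gp130, fell in WT by 0.50 (adjusted p 6.60e-05) and in labelled-K815Q by 0.35 (adjusted p 0.00193), and K815R exceeded WT by 0.46 (adjusted p 5.96e-04).

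Few of the chemokine receptor genes in the deposited table had enough counts to test. Of 21 chemokine receptor and scavenger genes in the table, 14 had fewer than 10 counts in every library, and 6 were tested. Ccr2, which encodes the receptor of Ccl2, and Ackr1 were not in the table under those symbols, so their levels are not known. EdgeR and DESeq2 called 0 of the 6 in any comparison, where 0 to 2 had an unadjusted p under 0.05. Cxcr3, the receptor of Cxcl9, Cxcl10 and Cxcl11, had 19 counts over all libraries. Cxcr4, the receptor of Cxcl12, averaged 38.0 ± 1.96 CPM for LacZ, 33.3 ± 6.45 for WT, 41.9 ± 3.31 for K815R and 33.5 ± 9.84 for labelled-K815Q (SD, n = 3 each).

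Markers of other cells are given because such cells make many of these proteins. Of 12 macrophage and leukocyte markers, none at 0, edgeR and DESeq2 called 0 in WT and in K815R, where 6 and 4 had an unadjusted p under 0.05. In labelled-K815Q Fcer1g rose by 0.50 and Adgre1 fell by 0.54 on the log2 scale. Both calls were lost without LacZ replicate 2 (0.35 and -0.59). Against LacZ, 10, 11 and 10 of the 12 markers lay higher with WT, K815R and labelled-K815Q. Of those with an unadjusted p under 0.05, 5, 4 and 5 lay higher and 1, 0 and 1 lower. The median log2 fold changes of the 12 markers were 0.22, 0.21 and 0.28, beside 0.01, 0.00 and 0.01 over all genes. Without LacZ replicate 2 the medians of the 12 were 0.11, 0.15 and 0.17. Their summed level was 74.0 to 94.7 CPM in LacZ, lowest in replicate 2, and 93.4 to 102 in WT, 96.0 to 103 in K815R and 95.2 to 107 in labelled-K815Q. LacZ replicate 1, at 94.7 CPM, lay above WT replicate 1, at 93.4. Of 8 fibroblast markers, Postn rose by 0.35 and Pdgfra fell by 0.36 in WT, the group in which Ptx3, Olr1 and Cxcl12 were lowest. In labelled-K815Q, Tcf21 rose by 0.53 and Postn by 0.20 against LacZ, and in K815R edgeR called 0 (3 at an unadjusted p under 0.05; DESeq2 called 1). Against WT, Pdgfra was higher by 0.54 in K815R and by 0.30 in labelled-K815Q, and Postn stood at -0.36 in K815R. The call of Postn in labelled-K815Q against LacZ was lost without LacZ replicate 2, at 0.14. The fibroblast sum was 8839 to 9483 CPM for LacZ, 8018 to 8582 for WT, 8179 to 8603 for K815R and 8733 to 9388 for labelled-K815Q. EdgeR called 0 of 7 endothelial markers against LacZ, where 0, 0 and 1 had an unadjusted p under 0.05 and DESeq2 called 0, 0 and 1, with sums of 161 to 178 CPM for LacZ, 157 to 202 for WT, 171 to 199 for K815R and 132 to 183 for labelled-K815Q. Of 5 lymphocyte markers 4 had fewer than 10 counts in every library, and Ms4a1 was at 0 throughout. Of 6 neutrophil and mast cell markers 4 were under 10 counts in every library. The part of these cells in the results was not tested.

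**Figure D5:**
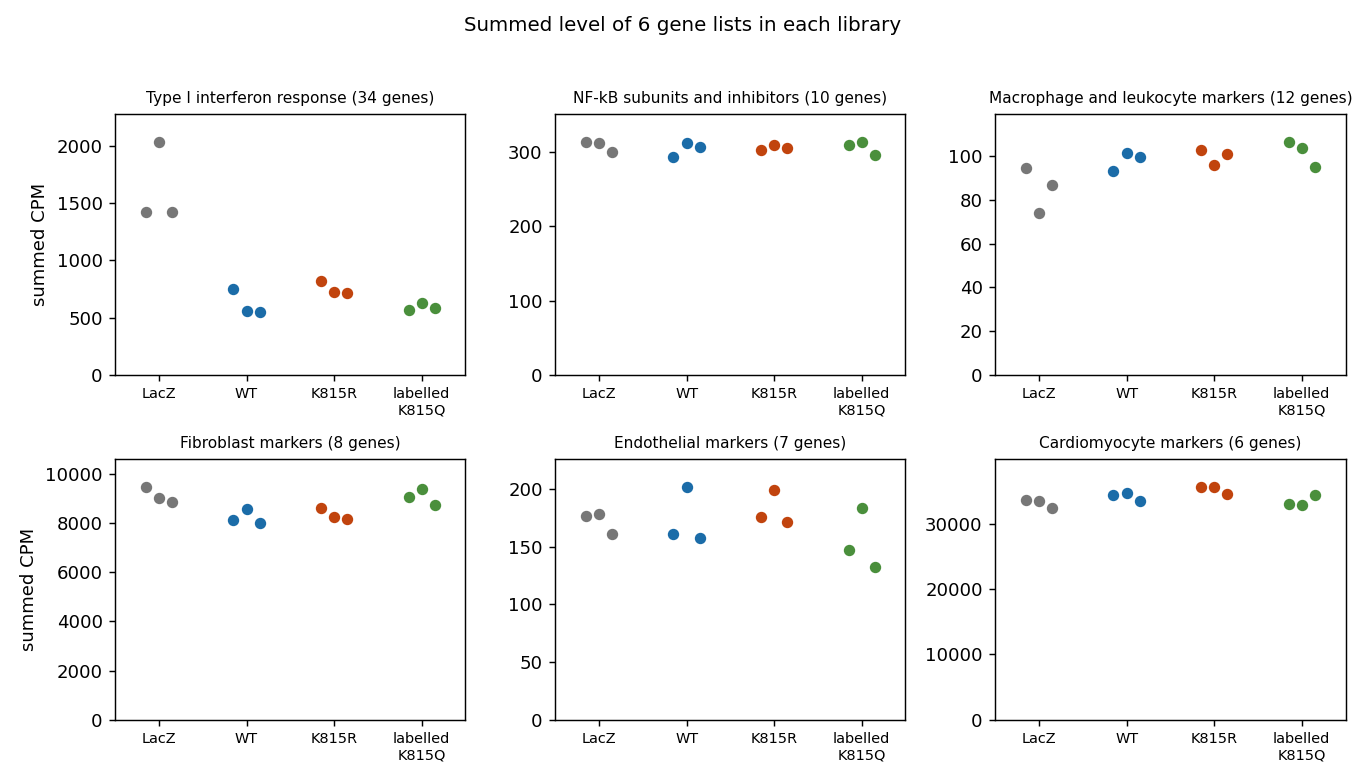
Summed CPM of 6 gene lists in each library (points), by group, on axes that start at 0. The interferon response sum is highest in LacZ, at 1423 to 2042 CPM, and the sums of NF-kB subunits and inhibitors overlap between groups, at 294 to 315 CPM over all libraries.

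Without LacZ replicate 2, calls among the 71 genes numbered 7 in WT, 3 in K815R and 2 in labelled-K815Q, against 11, 5 and 6 with it. These are 9.86%, 4.23% and 2.82% of the 71, where 2.65%, 1.30% and 2.93% of all genes tested were called in the same fits. The share in labelled-K815Q was then no higher than that of all genes. In WT the genes called were Ccl2, Ptx3, Cxcl12, Il1r1, Cxcl10, Ccl6 and Olr1. In K815R they were Ccl20, Cxcl10 and Cxcl11, and in labelled-K815Q they were Cxcl10 and Cxcl11. Leaving out WT replicate 1 took the count for WT to 5 (7.04%, beside 3.80% of all genes), and the count for labelled-K815Q against WT from 3 to 1 (1.41%, beside 0.351%). The count for K815R against WT went from 8 to 3 without K815R replicate 2 (4.23%, beside 1.24%).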

How the data were processed

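RNA was sequenced in 12 libraries in 4 groups of 3, which were read from the sample titles. The authors deposited 1 table of raw read counts per gene. Per the submitters' processing notes, Trimmomatic 0.39, HISAT2 2.2.1, HTSeq 0.6.1, edgeR and the build Rnor_6.0 were used; the annotation release and strand setting are not given in the sources used here. The library kit marks strand, per the labels' protocols. The 5 counter lines that name no gene, 40.7% to 43.3% of reads, stayed out of library sizes.

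The members and lists were chosen with earlier results of these data known. Counts were scaled by TMM and filtered by expression with filterByExpr (a count of 10, a total of 15), leaving 14063 genes. Group means over all 12 libraries were fitted with edgeR 4.0.16 (R 4.3.3), by the robust quasi-likelihood test. P-values were adjusted by Benjamini-Hochberg over all genes tested. Standard errors are the log2 fold change divided by the square root of F. All p-values in the report are two-sided and adjusted in this way unless another tool is named.

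The rule for giving values in every library took genes called in at least 1 comparison and Ptx3, Olr1, Lif, Nfkbia, Tnfaip3, Ptgs2, Icam1 and Vcam1. Outside this rule, values in every library are also given for Cxcl9, Ccl5, Il6 and Il1rl1, which were not called. From each other list at most 4 called genes are named, by lowest adjusted p. Replicate numbers did not pair the libraries. Overlapping genes were taken from RefSeq's GRCr8 gene table, where 20 of the 71 genes overlap another. On simulated counts for WT against LacZ (13950 genes), 85 of 100 genes changed 1.5-fold and 92 of 100 changed 2-fold were called, with 6 calls among unchanged genes. The changed genes were drawn only from those with a positive average log2 CPM. The simulation therefore does not cover genes below that level, such as Cxcl9 and Ccl5. For the 4 genes with more than 1 RefSeq start the first listed was used. Alternatives were other scalings, other filters, DESeq2 1.42.0, fits of only the libraries compared, a replicate block and leaving out each library.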

Additional observations from a re-analysis of the deposited data

How the results depend on the processing

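Of 1092 values recomputed for the 33 calls and 22 other quoted differences, 1088 kept their direction. The 4 that did not were near 0: Ptx3 in K815R against LacZ was 0.0052 without LacZ replicate 2 (range with 1 library left out -0.34 to 0.0052), Olr1 in labelled-K815Q against LacZ was -0.014 without labelled-K815Q replicate 2 (-0.014 to 0.19), and Cxcl10 in K815R against WT was -0.0050 without WT replicate 2 and -0.019 without K815R replicate 3 (-0.019 to 0.21). With no filter, calls among the 71 genes rose from 5 to 8 in K815R against LacZ, from 6 to 12 in labelled-K815Q against LacZ, from 3 to 6 in those against WT, and from 11 to 21 for any difference; the cause was not tested. Leaving out 1 library gave 5 to 11 calls for WT against LacZ, 3 to 6 for K815R, 2 to 9 for labelled-K815Q, 3 to 8 for K815R against WT, 1 to 4 for labelled-K815Q against WT, 0 to 0 for K815R against those, and 9 to 16 for any difference. Other scalings, the other filters that set a minimum count, DESeq2 and fits of only the libraries compared stayed within 1.5 times the counts in the report. Those counts come from all 12 libraries with TMM and filterByExpr. Of 18 pairs of libraries with the same number, 1 had a correlation of deviations over 0.1 (range -0.127 to 0.122), and 4 of 12 libraries correlated best with their own number. With the replicate block, the counts were 11, 5, 8, 8, 4 and 0 in the 6 comparisons in the order of the report and 14 for any difference, and all 33 calls were kept. The share of all genes called with no filter or with the block is not given here. The counts of those fits therefore cannot be set against a background. Ccl5 and Cxcl9 had 0 to 38 counts in a library; how large a difference could be detected at such counts was not tested.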
